A study of Cavia porcellus with 9 samples.

Results

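Retinal ganglion cells are the output neurons of the eye, and their axons form the optic nerve. The 10 genes described here are known from textbook work as genes of these cells: the RNA-binding protein gene Rbpms, the transcription factor genes Pou4f1, Pou4f2, Pou4f3 and Isl1, the synuclein gene Sncg, the neurofilament genes Nefl, Nefm and Nefh, and the surface glycoprotein gene Thy1. They were chosen by name, and all 10 were found among the 19962 genes of the deposited count table. All 10 also passed the filter on low counts, as did 15469 genes in all, and each had counts in every library. Symbols were matched to protein-coding genes of the RefSeq annotation of the assembly mCavPor4.1 for all 10.

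Male tri-color animals of the guinea pig (Cavia porcellus), strain Dunkin-Hartley, had been kept on a 12:12 cycle under green, blue or white light for 8 weeks and were 12 weeks old at sampling. White light is taken as the reference, and no group carried a genetic change or other agent that the labels name. The sources used here give neither wavelength nor intensity of the lights. Each light has 3 libraries of bulk retinal RNA from 2 animal numbers, because libraries 1 and 2 of green (number 11), libraries 2 and 3 of blue (number 32) and libraries 1 and 2 of white (number 6) share a number in their titles, so p-values measure the spread between libraries and not only between animals. The pairs of blue and white are titled od and os, but both green ones are titled 11od, 1 with the suffix B, so that the green values with n = 3 may come from 2 eyes, which the labels do not settle. Leaving out both libraries with that suffix, 1 of green and 3 of white, called 0 of the 10 genes in any comparison. The blue title 2R-23 and the white title R-23 share a part, and whether they name 1 animal is not stated.

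The cell body and dendrites of a ganglion cell lie in the innermost layers of the retina, and only the first stretch of its axon runs within the retina. The 3 POU4F (BRN3) proteins mark overlapping sets of ganglion cells and are known for their part in ganglion cell differentiation, axon growth and survival. The neurofilament light, medium and heavy chains assemble into the filaments that fill large axons. Several of the 10 genes are not restricted to ganglion cells: Isl1 is also used by ON bipolar cells and cholinergic (starburst) amacrine cells, and neurofilaments are also found in horizontal cells of some mammals. In bulk retina, fewer cells of a type and less RNA per cell cannot be told apart.

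The libraries held between 62155041 and 74979806 counts each, so that 3 counts, the limit that a count of 0 allows, correspond to 0.04 to 0.0483 CPM (counts scaled to a common library total; counting error only). Rod genes marked all libraries as retina, with a summed level of the 10 matched rod genes of at least 69325 CPM in each library. RNA of the pigment epithelium, which adjoins the photoreceptors, differed much between libraries of the same light. The 12 listed genes summed to 224 to 735 CPM under green, 514 to 718 under blue and 298 to 754 under white. Of these, Rgr was at 177 to 367 CPM over all libraries and made up most of the lowest sum. Some of the other genes ranged more widely than the sums, with Rpe65 at 7.76 to 144 CPM and Pmel at 3.89 to 95.1 CPM. Lens genes were summed at 79.1 to 96.0 CPM under green, 50.7 to 89.8 under blue and 30.3 to 73.0 under white. Markers of optic nerve oligodendrocytes were summed at 135 to 179 CPM over all libraries, while Mbp averaged 3.03 to 3.05 CPM by group and Opalin was at 0 counts in all 9 libraries. Of the 14 lens genes 8 had an unadjusted p under 0.05 between green and white, against 5.81% of all genes tested. EdgeR called 0 genes of any marker list. The part of these other tissues in the results below was not tested, other than by the fits and values named with them.

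The first question was whether any of the 10 genes differed between lights. None passed an adjusted p under 0.05 in edgeR's quasi-likelihood test in any comparison, and none reached an unadjusted p under 0.05. Neither DESeq2 nor limma voom called any of them. Over all genes tested, edgeR called 0.00646% between green and white, 0.00646% between blue and white and 0% between green and blue, and 5.81%, 4.45% and 7.18% had an unadjusted p under 0.05. The adjusted p of the 10 genes was at least 0.929 between green and white, above 0.999 between blue and white, and at least 0.725 between green and blue. The joint test of any difference among the 3 lights also called 0 of the 10, against 0.00646% of all genes, and 5.94% of all genes had an unadjusted p under 0.05 in it.

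The levels that follow are CPM scaled by TMM, a scaling for library composition. They are compared between libraries only, not between genes, because they are not corrected for transcript length.

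**Figure D1:**
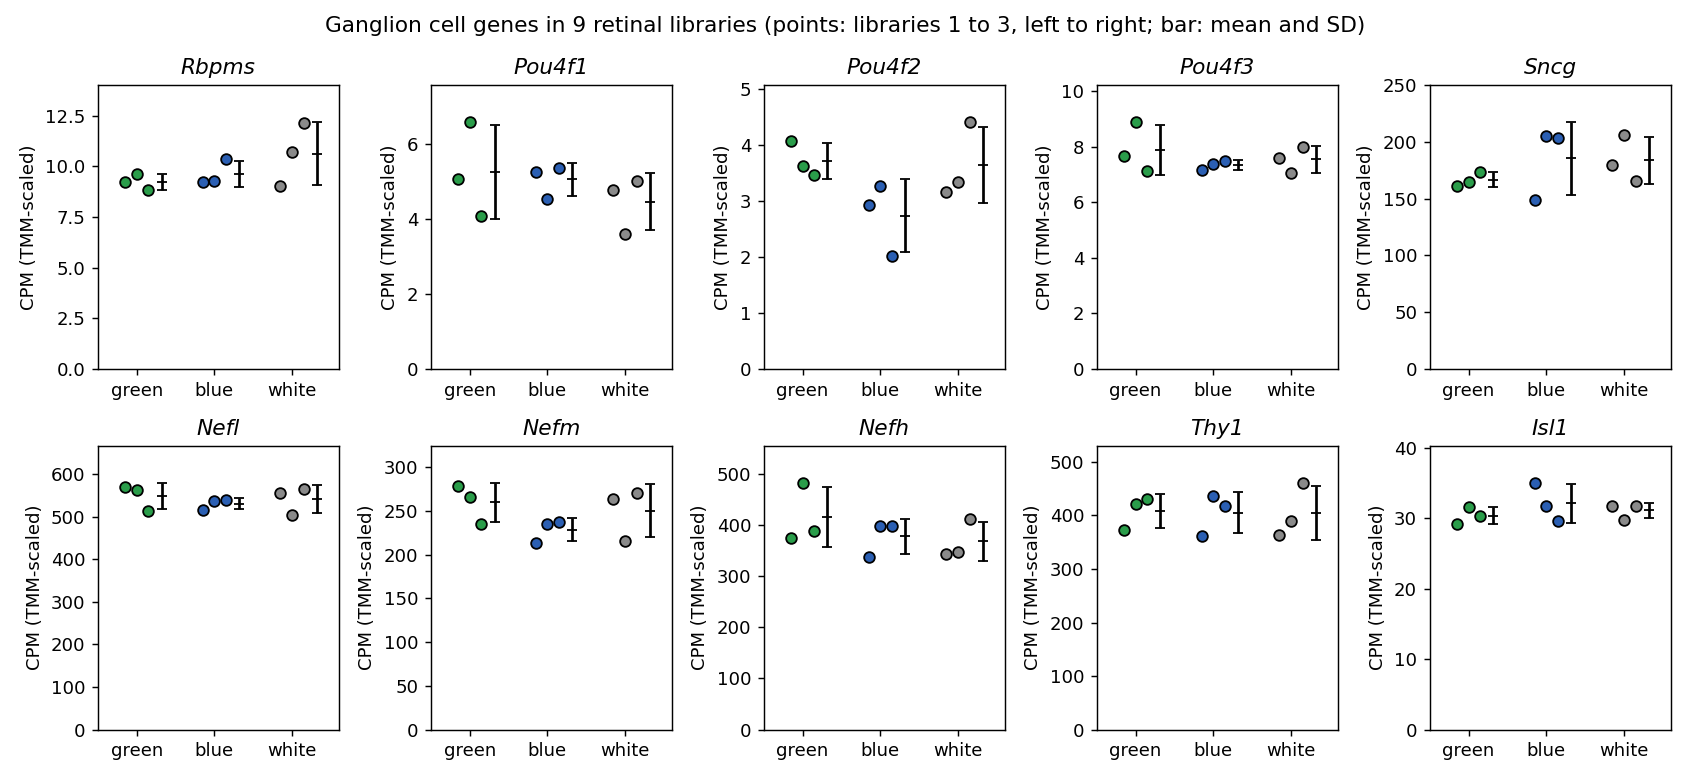
TMM-scaled CPM (vertical axes, from 0) of the 10 ganglion cell genes in libraries 1 to 3 of each light, left to right, with the mean and SD of each group (n = 3). The groups overlap for every gene and pair of lights except Pou4f2 between green (3.45 to 4.07) and blue (2.01 to 3.27).

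Among the transcription factors, Pou4f2 (Brn3b), which acts early in ganglion cell differentiation, showed the widest differences between lights. It was at 4.07, 3.62 and 3.45 CPM in green libraries 1 to 3, at 2.92, 3.27 and 2.01 CPM under blue and at 3.15, 3.34 and 4.41 CPM under white. Every green library lay above every blue library, and white overlapped both. This was the single case among the 10 genes in which the libraries of 2 lights did not overlap, 1 of 10 genes between green and blue. Of all genes tested, 14.2% did not overlap between green and blue, 7.23% with green higher and 6.94% with green lower. Between green and white 0 of the 10 genes did not overlap, against 10.1% of all genes (5.34% higher and 4.74% lower in green), and between blue and white 0 of 10, against 9.9% (5.76% higher and 4.14% lower in blue). The means were 3.71 ± 0.318 CPM (SD, n = 3) under green, 2.73 ± 0.649 under blue and 3.63 ± 0.677 under white. The log2 difference between green and blue of 0.44 ± 0.22 (SE) did not pass in edgeR (adjusted p = 0.725), nor did that between blue and white of -0.41 ± 0.22 (adjusted p above 0.999).

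Much of the Pou4f2 difference lay in library 3 of blue. It held 137 counts of Pou4f2, with an exact Poisson 95% interval of 115 to 162 counts, or 1.69 to 2.38 CPM, below the intervals of all other libraries. Such intervals cover counting error only and take each count as 1 fragment. Library 2 of blue, the other eye (od in the title, against os) of the same animal number, held 241 counts, or 2.87 to 3.71 CPM. Without library 3 of blue the log2 difference between green and blue was 0.26 (edgeR adjusted p = 0.995), and in a fit with the pigment epithelium level as an added term it was 0.33 (adjusted p = 0.998). Over the alternatives run the adjusted p of this difference lay between 0.445 and 0.998.

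Pou4f1 (Brn3a), a paralogue with a role in ganglion cell survival, was at 5.08, 6.59 and 4.09 CPM under green, 5.26, 4.54 and 5.37 under blue and 4.77, 3.61 and 5.02 under white. Its highest library, 2 of green, and its lowest, 2 of white, were 1.83-fold apart, and both coloured groups overlapped white. The log2 difference between green and white was 0.23 ± 0.20 (SE), with a 95% interval from -0.22 to 0.68. Pou4f3 (Brn3c) was much steadier at 7.64, 8.88 and 7.13 CPM under green, 7.14, 7.38 and 7.50 under blue and 7.60, 7.04 and 7.98 under white. Its 3 blue libraries lay within the range of the white ones, and library 2 of green was again the highest.

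Isl1, a LIM homeodomain gene that ganglion cells share with ON bipolar and starburst amacrine cells, was at 29.3, 31.6 and 30.4 CPM under green, 35.1, 31.8 and 29.6 under blue and 31.8, 29.8 and 31.8 under white. The groups overlapped throughout, and both its highest and its second lowest level were found in blue libraries. Its log2 differences were -0.03 ± 0.09 (SE) between green and white and 0.05 ± 0.09 between blue and white. Markers of the other cells that use Isl1 were set beside it. The summed level of the 7 starburst genes was 157 to 160 CPM under green, 144 to 147 under blue and 152 to 154 under white. These ranges did not overlap, but edgeR called none of the 7 in any comparison (1 had an unadjusted p under 0.05, between green and blue). Megf10 alone made up 62.9 to 75.1 CPM of the sum. Taken singly, 4 of the 7 did not overlap between green and blue, against 14.2% of all genes. Between green and white 0 did not overlap (10.1% of all genes), and between blue and white 1 (9.9%). Slc18a3 had its highest mean under blue (18.6 CPM) and Slc5a7 under white (6.54 CPM), while Chat (15.2 CPM) and Sox2 (28.4 CPM) had theirs under green. Isl1 itself was not ordered as the summed starburst level was, with a mean of 32.1 CPM under blue and 30.4 CPM in green.

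Rbpms encodes an RNA-binding protein found in ganglion cells of all subtypes, and so is a gene often used to count them. It was at 9.22, 9.62 and 8.83 CPM under green, 9.23, 9.26 and 10.4 under blue and 9.03, 10.7 and 12.2 under white. Library 3 of white was the highest and library 3 of green the lowest, and the white range contained every coloured library but library 3 of green. The log2 difference was -0.20 ± 0.14 (SE) between green and white and -0.14 ± 0.14 between blue and white. The 95% intervals reach down to a ratio of 0.705 for green over white and 0.735 for blue over white, and up to 1.07 and 1.11.

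Thy1, a glycoprotein of the neuronal surface, was at 372, 421 and 431 CPM under green, 362, 436 and 418 under blue and 364, 389 and 461 under white. Group means were 408 ± 31.8, 405 ± 38.7 and 405 ± 50.3 CPM (SD, n = 3). The differences between these means were far smaller than the spread within each group, with log2 differences of 0.01 ± 0.11 (SE) for green and 0.00 ± 0.11 for blue against white. Sncg, the gamma-synuclein gene, was at 161, 165 and 174 CPM under green, 149, 205 and 203 under blue and 179.8, 206 and 166 under white. Its 3 green libraries lay close together, below 2 of the 3 libraries of each other light. The log2 difference between green and blue was -0.15 ± 0.12, and library 1 of blue, the lowest of all 9, stood apart from the other blue libraries.

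The neurofilament genes overlapped between all lights. Nefl, the light chain gene, was at 569.5, 563 and 513 CPM under green, 515, 538 and 539 under blue and 556, 504 and 565 under white. Its highest level was 1.13-fold its lowest, so that the 95% intervals of its 3 differences covered ratios from 0.876 to 1.16. Nefm, the medium chain gene, was at 278, 266 and 235 CPM under green, 213, 235 and 237 under blue and 264, 216 and 271 under white. Libraries 1 and 2 of green lay above all blue libraries while library 3 of green lay among them, and green minus blue was 0.19 ± 0.10 (SE) on the log2 scale (edgeR adjusted p = 0.738). Nefh, the heavy chain gene, was at 375, 482 and 389 CPM under green, 338, 397 and 397 under blue and 344, 346 and 412 under white. Library 2 of green was the highest by a clear margin, and the log2 difference between green and white was 0.18 ± 0.11.

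**Figure D2:**
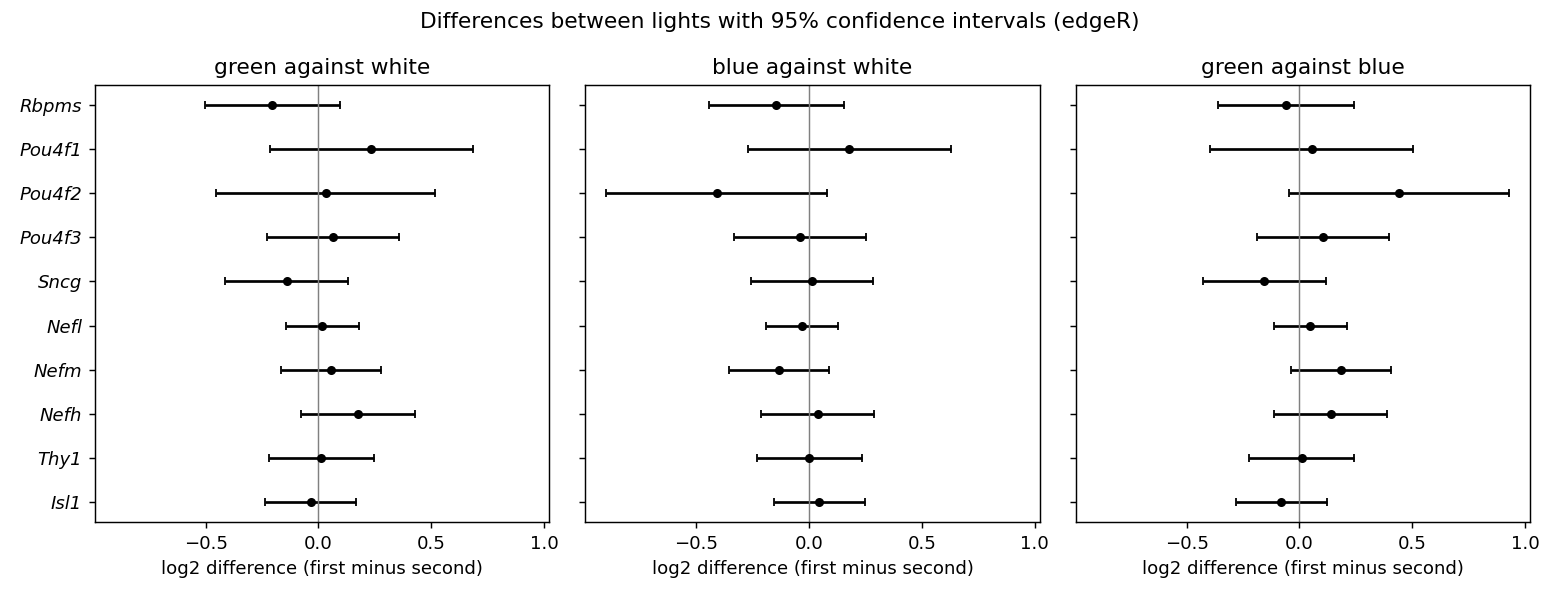
Log2 differences between lights (horizontal axes, first light minus second) of the 10 ganglion cell genes with 95% confidence intervals from edgeR. All 30 intervals include 0, and the widest are those of Pou4f1 and Pou4f2.

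The intervals show what sizes of difference these libraries leave possible. Of the 30 intervals, 30 lay wholly within a 2-fold difference in either direction, 26 within 1.5-fold and 12 within 1.25-fold. The widest belonged to the genes with the fewest counts. For Pou4f2 the interval reached a ratio of 1.91 for green over blue and 0.536 for blue over white. Differences within these limits were not resolved with 3 libraries a light. The intervals treat libraries of 1 animal number as independent, so they can be too narrow for differences between animals.

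Seen as a list, the 10 genes had a median log2 difference of 0.02 between green and white, with 7 of 10 higher in green. All genes tested had a median of 0.01, with 52.4% higher. Between blue and white the median was -0.01 with 5 of 10 higher, against 0.00 and 51.5% of all genes. Between green and blue it was 0.05 with 7 of 10 higher, against -0.00 and 49.4%. The median size of the difference, regardless of direction, was 0.06, 0.04 and 0.09 for the 10 genes and 0.11, 0.10 and 0.12 for all genes. These sizes were not matched for level, and variation beside genes at a like level is given below. The comparisons share libraries, so they are not separate looks at the same question.

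These medians depended on single libraries. Library 2 of green had 8 of the 10 genes above their mean over all libraries, and library 3 of white had 9. Library 1 of blue had 2, and it held the lowest level of 4 genes (Sncg, Nefm, Nefh and Thy1). Library 2 of white held the lowest level of 3 genes (Pou4f1, Pou4f3 and Nefl). Without library 3 of white the median difference between green and white was 0.10, and without library 2 of white it was -0.03. Without library 3 of green the median difference between green and blue was 0.14, and without library 2 of green it was -0.00. Libraries with mostly high levels were thus found under green and white, and those with many of the lowest levels under blue and white.

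**Figure D3:**
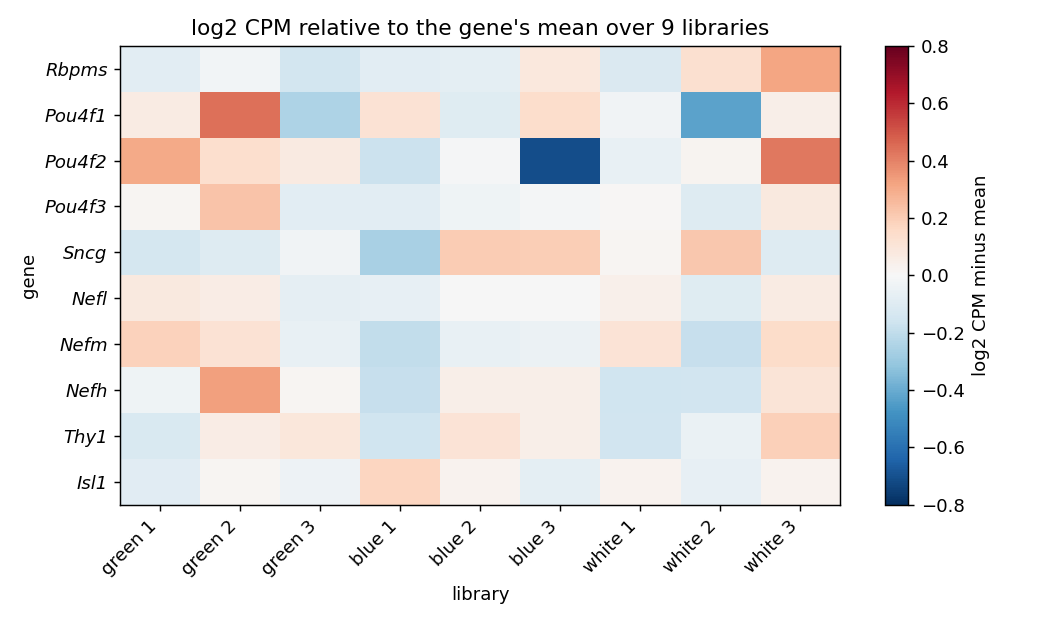
Log2 CPM of each ganglion cell gene (rows) minus its mean over 9 libraries, by library (columns), on a colour scale from -0.8 to 0.8. Library 2 of green and library 3 of white are above the mean for most genes, and the darkest cell is Pou4f2 in library 3 of blue at -0.71.

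Libraries with an animal number in common were compared next. The mean absolute log2 difference over the 10 genes was 0.143 for the 3 pairs of libraries that share a number, 0.189 for the 6 other pairs within a light and 0.169 for the 27 pairs from different lights. For all genes tested the same values were 0.231, 0.235 and 0.238. Over the 10 genes, pairs within a light but from different animal numbers were thus not closer on average than pairs from different lights, while over all genes they were slightly closer. The differences between these kinds of pairs were not tested. Of the 3 pairs that share a number, the right and left eyes of blue number 32 were closest at 0.117, yet they differed in Pou4f2 as given above.

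The 10 genes were next compared with each other, and no pair passed adjustment. Relations were computed over the 6 animal numbers, with the log2 levels of libraries that share a number averaged, for all 45 pairs of genes. Pou4f3 and Nefl had the closest relation, with Pearson's r = 0.976 (exact permutation p = 0.00139, two-sided, adjusted p = 0.0625 over the 45 pairs, n = 6 animal numbers) and Spearman's rho = 1 (exact permutation p = 0.00278, adjusted p = 0.125). Without the 2 animal numbers farthest from the median of Pou4f3, r was 0.997. Pou4f3 and Nefm followed with r = 0.924 (exact permutation p = 0.0125, adjusted p = 0.281), but r was 0.553 without the 2 farthest. Nefl and Nefm came next with r = 0.917 (exact permutation p = 0.0194, adjusted p = 0.292) and rho = 0.886 (exact permutation p = 0.0333, adjusted p = 0.438). Their r was 0.526 without the 2 farthest, so both of these relations rest in part on those. Of the 45 pairs, 33 had r over 0, 4 had an unadjusted p of r under 0.05 and 0 an adjusted one. The averaged levels also share the scaling of libraries, and no background of other gene pairs was computed.

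Over the 9 libraries, which share scaling factors and animal numbers, Nefl and Nefm had r = 0.944. Pou4f3 had r = 0.774 with Nefl and 0.821 with Nefh. Sncg had r = -0.488 with Pou4f1 and -0.516 with Isl1 over the same libraries. These values are descriptions. None of the 10 genes had a relation to the level of pigment epithelium genes over the 6 animal numbers that passed (smallest adjusted exact permutation p = 0.94, over 10 relations, two-sided). The largest rho in size was that of Pou4f2, -0.829 (unadjusted exact permutation p = 0.0583), with r = -0.573 (unadjusted exact permutation p = 0.235). Without the 2 animal numbers farthest from the median pigment epithelium level, r was -0.957 for Pou4f3, -0.891 for Nefm, -0.887 for Nefl and -0.880 for Pou4f2. It was then -0.719 for Nefh, -0.609 for Pou4f1, -0.104 for Thy1, 0.280 for Rbpms, 0.305 for Sncg and 0.445 for Isl1. These last values rest on few animal numbers and were not tested. With 6 animal numbers a relation can be present and not pass.

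Ratios between members within a library do not depend on the scaling of libraries. The ratio of Nefm to Nefl counts was 0.489, 0.472 and 0.458 under green, 0.414, 0.437 and 0.439 under blue and 0.474, 0.427 and 0.479 under white. All 3 green ratios exceeded all 3 blue ones, while white overlapped both. An exact permutation test over the 1680 assignments of 9 libraries to 3 lights gave p = 0.146 for this ratio (adjusted p = 0.310 over 4 ratios), where the smallest p possible was 0.00357. Nefh over Nefl ranged from 0.618 to 0.856 and overlapped throughout (adjusted exact permutation p = 0.468). Pou4f1 over Pou4f2 averaged 1.42 ± 0.351 (SD, n = 3) under green, 1.95 ± 0.654 under blue and 1.24 ± 0.235 under white. Pou4f3 over Pou4f2 averaged 2.13 ± 0.294, 2.81 ± 0.801 and 2.11 ± 0.301, and both ratios had their highest value, 2.67 and 3.73, in library 3 of blue (adjusted exact permutation p = 0.310 for each).

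How much the genes varied depended on the gene. Over the 9 libraries the coefficient of variation was 4.57% for Nefl, 5.66% for Isl1 and 7.52% for Pou4f3, and each of these was below the median of genes at a like level (7.88%, 9.79% and 15.5%). It was 11.9% for Sncg and 11.6% for Nefh, above the medians of 7.67% and 7.63% at their levels. Counting error alone would give 0.898% and 0.612% for these. Counting error takes each count as 1 fragment throughout, which may not hold. Nefm at 9.83% and Thy1 at 8.75% were also above their medians (7.49% and 7.73%), and Rbpms at 10.9% was below its own (14.3%). For Pou4f2, with 137 to 317 counts a library, the coefficient of variation was 20.4%, and counting error alone would give 6.55%. Pou4f1, at 17.1%, lay close to the 17.6% of its neighbours in level, as Pou4f2 did to the 20.2% of its own. In all, 5 of the 10 genes were above and 5 below the median at their level.

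**Figure D4:**
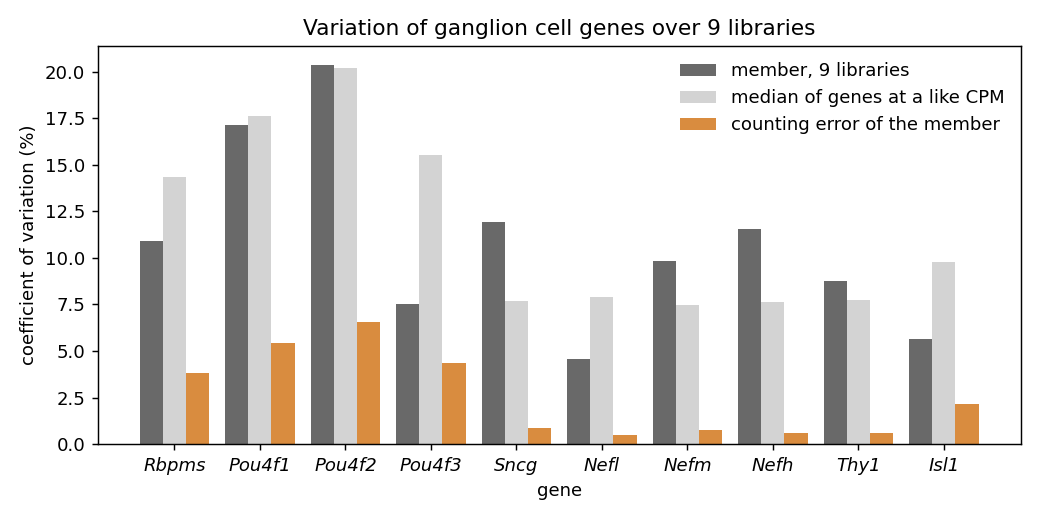
Coefficient of variation in percent (vertical axis) of each ganglion cell gene over 9 libraries (dark bars), the median of genes within 0.5 log2 units of its mean CPM (light bars), and the counting error of the gene (orange bars). The counting error takes each count as 1 fragment. Sncg, Nefh, Nefm, Thy1 and, by little, Pou4f2 lie above the median of their neighbours, and Rbpms, Pou4f1, Pou4f3, Nefl and Isl1 lie below it.

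Other genes of ganglion cells were read from a list of 27, of which 24 were tested. In edgeR 0 of the 24 were called in any comparison. At an unadjusted p under 0.05 stood 1 between green and white, 3 between blue and white and 3 between green and blue. Of all genes tested, 5.81%, 4.45% and 7.18% did. Limma voom called 0, and DESeq2 called 1, Ebf1, between green and blue, where it called 48 genes over the whole table. Slc17a6, the vesicular glutamate transporter of ganglion cells, was at 27.7 ± 6.55 CPM (SD, n = 3) under green, 24.02 ± 1.80 under blue and 27.1 ± 6.39 under white. Rbpms2, the paralogue of Rbpms, was at 8.99 ± 1.56, 8.84 ± 1.20 and 8.21 ± 0.759 CPM. Nrn1, which encodes the neurite-promoting protein neuritin, was at 43.3 ± 5.89, 37.7 ± 1.59 and 40.4 ± 2.20 CPM, and the transcription factor gene Ebf3 at 36.3 ± 2.19, 40.8 ± 2.66 and 35.7 ± 0.926 CPM.

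The other genes of that list with an unadjusted p under 0.05 were chosen after their values were seen. Ebf1, a transcription factor gene, was at 22.6, 10.02 and 19.4 CPM under green, 7.84, 8.83 and 8.71 under blue and 11.3, 8.29 and 10.9 under white. All green libraries lay above all blue ones, as they did for 7.23% of all genes tested. Green minus blue was 1.04 ± 0.25 (SE) on the log2 scale, which passed in DESeq2 (adjusted p = 0.0154) and not in edgeR (adjusted p = 0.530). The 2 green libraries with the high values, 1 and 3, were also those with the least pigment epithelium RNA (243 and 224 CPM), and library 2 of green had 735 CPM. Libraries 1 and 2 of green, at 22.6 and 10.02 CPM of Ebf1, are both titled 11od, apart from the suffix B. The part of the pigment epithelium RNA in the Ebf1 level was not tested. Chrnb3, a nicotinic receptor subunit gene, was at 2.80 ± 0.839 CPM under green, 1.44 ± 0.479 under blue and 2.88 ± 0.806 under white. Blue lay below white in every library (log2 difference -1.001 ± 0.32, edgeR adjusted p = 0.968), as for 4.14% of all genes tested. Mmp17 was at 46.9 ± 4.41 CPM under blue and 36.5 ± 3.92 under white, and Spp1 (osteopontin) at 36.6 ± 3.04 CPM in green and 30.0 ± 0.429 in blue.

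Genes of the axonal cytoskeleton and of axonal transport were read next. Of 25 listed, 23 were tested and edgeR called 0 in any comparison. An unadjusted p under 0.05 was found for 0, 1 and 2 between green and white, blue and white, and green and blue. Of all genes tested, 5.81%, 4.45% and 7.18% had one. DESeq2 and limma voom called 0. Ina, the alpha-internexin gene whose protein joins the neurofilament chains, was at 373 ± 24.9 CPM under green, 359 ± 2.97 under blue and 346 ± 6.02 under white. Prph, the peripherin gene, was at 11.6 ± 2.53, 10.7 ± 1.57 and 11.7 ± 0.399 CPM. Mapt, which encodes the microtubule protein tau, was at 583 ± 28.7, 599.7 ± 26.7 and 594 ± 16.5 CPM, and Map1a at 465 ± 55.7, 495 ± 48.7 and 489 ± 33.8 CPM. The median log2 differences of the 23 genes were -0.02, -0.04 and 0.06 in the same order of comparisons.

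Genes of axon injury and ganglion cell survival were looked at because ganglion cell genes fall after optic nerve damage. Of 25 listed, 23 were tested and edgeR, DESeq2 and limma voom called 0 in any comparison. In edgeR 4, 1 and 3 had an unadjusted p under 0.05 between green and white, blue and white, and green and blue. Of all genes tested, 5.81%, 4.45% and 7.18% did. Atf3, a transcription factor gene induced by axon injury, was at 2.62 ± 0.549 CPM under green, 1.59 ± 0.637 under blue and 1.996 ± 0.179 under white. Jun was at 74.5 ± 4.08, 87.1 ± 9.82 and 83.5 ± 7.91 CPM, Sox11 at 1.81 ± 0.365, 2.19 ± 0.386 and 1.996 ± 0.473 CPM, and the stress gene Ddit3 at 17.2 ± 0.937, 16.9 ± 0.171 and 16.4 ± 1.66 CPM. Ecel1, named after its values were seen, is a gene induced in injured neurons and was at 5.17, 40.1 and 5.85 CPM under green, 4.78, 6.997 and 17.4 under blue and 6.04, 5.65 and 4.58 under white. A single green and a single blue library thus stood high. The proapoptotic gene Bax, likewise named after its values were seen, was at 25.4 ± 2.61 CPM under green, 31.8 ± 3.01 under blue and 30.6 ± 1.43 under white. Each green library lay below each library of the other lights (edgeR adjusted p = 0.850 against white and 0.629 against blue). Of all genes tested, 4.74% lay lower in every green library than in white, and 6.94% than in blue. Of the 23 genes, 2 lay lower and 1 higher in every green library than in white. Against blue, 3 lay lower and 2 higher.

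Markers of horizontal cells, which can also hold neurofilaments, did not separate the lights. EdgeR, DESeq2 and limma voom called 0 of the 8 tested in any comparison, and none had an unadjusted p under 0.05 in edgeR. Their summed level was 447 to 468 CPM under green, 443.5 to 499.7 under blue and 449 to 488 under white. Calb1 (calbindin) was at 114 ± 10.02 CPM under green, 131 ± 16.4 under blue and 123 ± 16.9 under white, and Onecut1 at 2.43 ± 0.488, 2.41 ± 0.279 and 2.66 ± 0.703 CPM. Of the 11 ON bipolar genes edgeR called 0. An unadjusted p under 0.05 was found for 1, 0 and 3 between green and white, blue and white, and green and blue. Of all genes tested, 5.81%, 4.45% and 7.18% had one. The summed level of the ON bipolar genes was 1946 to 2116 CPM under green, 1943 to 1969 under blue and 2027 to 2085 under white. Blue thus lay below white in every library. Taken singly, 2 of the 11 lay lower and 1 higher in every blue library than in white, against 4.14% and 5.76% of all genes. In the lists of amacrine cells, rods, Müller glia, astrocytes, oligodendrocytes, pigment epithelium, lens and microglia, 0 genes were called by edgeR, DESeq2 or limma voom in any comparison, with at most 3 genes a list at an unadjusted p under 0.05 outside the lens list (8, 4 and 2 of 14). All 11 pigment epithelium genes tested had a lower fitted level under green than under white, none past the test.

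The genes whose levels over the 9 libraries were most like those of the ganglion cell genes were found among 12390 named genes with a mean of at least 1 CPM. The measure was Pearson's r of log2 levels, given as a description, since the libraries share scaling and animal numbers. For the mean of the 10 genes these included Plec (r = 0.978), which encodes the cytoskeletal linker plectin, Rab11fip4 (0.956), Znf516 (0.955) and the plasma membrane calcium pump gene Atp2b3 (0.949). For the mean of the 3 neurofilament genes they were the potassium channel gene Kcnj6 (0.964), Znf827 (0.961), Dpf3 (0.954), Prrg3 (0.953) and Pou2f1 (0.942). For Rbpms they were Btbd11 (0.948), Ass1 (0.907), Lrrc8a (0.889), Mpst (0.872) and Surf2 (0.872). No gene was named for more than 1 of the 3 profiles.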

How the data were processed

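The deposited table holds whole-number counts per gene for 9 retinal RNA-seq libraries, used as raw counts because its values are whole and its column totals differ. The sources used here do not give aligner, counting tool, strand setting or genome build. Per the labels' protocols, RNA was extracted with Trizol and sequenced paired-end. Low counts were uneven (2014 values equal 4 and 472 equal 3), so a unit may not be 1 fragment, and a fit with counts divided by 4 was run.

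All 9 libraries entered edgeR 4.0.16 (R 4.3.3) with light as the only term, TMM scaling, filterByExpr (minimum count 10, total 15; 4493 genes removed) and Benjamini-Hochberg adjustment over 15469 genes (threshold 0.05). Intervals come from the log2 difference and its SE. DESeq2 1.42.0 and limma 3.58.1 voom were alternatives. The procedure was tested on simulated data. Libraries were numbered within a light in order of deposition. The members, lists and rules were chosen with earlier results of these data known. All 10 members were named; of other lists the first 4 tested genes in written order were eligible, and those of the ganglion cell, axon and injury lists are given; likeness took the 5 highest r, of which 1 is not reported here. The p-values and intervals treat libraries of 1 animal number as independent, which can make the p-values too small and the intervals too narrow.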

Additional observations from a re-analysis of the deposited data

How the results depend on the processing

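Under all 21 alternatives, edgeR, DESeq2 or limma voom called 0 of the 10 genes in each comparison of 2 lights, with a smallest adjusted p of 0.445. Pou4f2 was filtered out at 5 CPM. No paired analysis was possible because the labels give no replicate numbers that groups share. Genes called over the whole table ranged from 0 to 24 between green and white, 0 to 28 between blue and white and 0 to 48 between green and blue, each time highest in DESeq2.

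With libraries left out, the median difference of the 10 genes ran from -0.028 to 0.10 between green and white and from -0.0012 to 0.14 between green and blue. Differences of the 10 genes that did not pass changed sign in 51 of 627 refits, all with a main value of at most 0.065 on the log2 scale in size; the cause was not tested. Counts summed per animal number gave, for green against white, -0.060 in Pou4f2, -0.022 in Nefl, -0.0085 in Nefm and -0.022 in Thy1. They gave, for blue against white, -0.024 in Sncg, -0.043 in Nefh and -0.086 in Thy1, and, for green against blue, -0.047 in Pou4f1. With pigment epithelium as a covariate the values were -0.038 in Pou4f2 and -0.0084 in Thy1 (green against white), -0.0055 in Sncg (blue against white) and -0.022 in Thy1 (green against blue). Without both libraries with the suffix B in their titles they were 0.00034 in Isl1 (green against white) and -0.068 in Sncg (blue against white). Thy1, blue against white, was -0.00061 with DESeq2 size factors, -0.00061 in the DESeq2 Wald test, -0.0044 with upper-quartile scaling and -0.0072 without a filter. Thy1, green against blue, was -0.0032 in voom with the animal number as a random block.

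With each library left out in turn, ranges that crossed 0 were, for green against white, -0.065 to 0.19 in Pou4f2, -0.029 to 0.13 in Pou4f3, -0.031 to 0.059 in Nefl, -0.041 to 0.12 in Nefm and -0.064 to 0.11 in Thy1. For blue against white they were -0.068 to 0.15 in Sncg, -0.017 to 0.12 in Nefh, -0.080 to 0.093 in Thy1 and -0.021 to 0.10 in Isl1. For green against blue they were -0.14 to 0.21 in Pou4f1 and -0.065 to 0.078 in Thy1. Among the 10 genes, counting error was largest in Pou4f2 (6.55%) and Pou4f1 (5.42%).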
